A study of Papio anubis with 2 samples.

Results

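Pairs of neighbouring H3K4me3 peaks were examined in chromatin of adult baboon (Papio anubis) brain cells, taken from the subventricular zone (SVZ). The members are peaks that lie in linked groups of exactly 2 on chromosomes 1 to 15, 17 and 18 of the macaque assembly rheMac2, where neighbours were linked if the gap between them was at most 10000 bp. This gave 641 pairs, or 1282 of the 9910 listed peaks, which is 12.9% of the list (95% Wilson interval 12.3% to 13.6%). On the same 17 chromosomes, pairs made up 641 of 3994 linked groups (16%, 14.9% to 17.2%) and held 1282 of 8689 peaks (14.8%, 14% to 15.5%). The members were chosen by the measured positions of the peaks, so their number and their limit of 10000 bp are descriptions and carry no test.

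SVZ cells were purified on beads carrying antibodies to GFAP, Nestin, Vimentin, PSA-NCAM or Doublecortin, markers of astroglia, progenitors and young neurons, and the labels call them neural progenitors. The labels do not say which antibody served for this library, how many animals were used or any age beyond adult. No treatment or genetic change is given. The analysed group is 1 H3K4me3 library from cells fixed in 1.1% formaldehyde, with chromatin sheared to 200 to 500 bp; the total histone H3 library was not analysed here. The cell type could not be checked against marker genes, because peaks were not tied to genes, and for the same reason no gene, exon or intron is named at any position. No rheMac2 sequence was used here, so no letters of the regions are shown.

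H3K4me3 is laid down by methyltransferases of the SET1 and MLL families and is read by proteins with PHD fingers, TFIID among them. In mammalian cells it sits mainly on the nucleosomes beside active or poised start sites, often over CpG islands, and in progenitors some start sites of developmental genes carry it together with the repressive mark H3K27me3. A start site commonly has a stretch depleted of nucleosomes with marked nucleosomes on either side, so that one promoter can give several local maxima of H3K4me3. The adult SVZ is a layer along the lateral ventricle that holds neural stem cells and the neuroblasts they give rise to.

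The question put to the pairs was how far apart their 2 peaks lie, and whether the distances are on the scale of neighbouring nucleosomes. The deposited list gives only positions, with no height or score, so distance and listed width are the values available. Every start in the list left a remainder of 1 when divided by 20, so distances fall in steps of 20 bp. Of the 641 distances between peak centres, 632 were whole steps, and the other 9, in which a wider peak took part, fell 10 bp off a step and were counted with the step below. Read depth is unknown, and the intervals given here cover counting error over pairs of 1 list. Pooled cells were profiled, so both peaks being marked in the same cells and each being marked in different cells cannot be told apart.

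Most pairs were close. The median centre distance was 460 bp (exact 95% interval 400 to 560 bp), with quartiles of 260 and 1080 bp and a range from 160 to 10140 bp. Of the 641 pairs, 277 lay 200 to 400 bp apart (43.2%, Wilson interval 39.4% to 47.1%), 458 lay under 1000 bp apart (71.5%, 67.8% to 74.8%) and 183 (28.5%) lay 1000 bp or more apart. From the start of the first peak to the end of the second, the lower quartile of the span was 410 bp, within the 200 to 500 bp of the sheared fragments, and the median was 610 bp, above them.

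By 20 bp step, the distances had 1 broad maximum. The shortest distance, 160 bp, occurred in 8 pairs, each with a gap of 10 bp between its intervals. Intervals of 150 bp cannot lie closer than that without touching, so nothing below this distance could appear. The count rose to 16 at 180 bp, 32 at 200 bp and 38 at 220 bp. It was highest at 240 bp, with 43 pairs (exact 95% Poisson interval 31.1 to 57.9), and the step at 260 bp held 39 (27.7 to 53.3). The order of the steps from 200 to 280 bp is not settled, since their intervals overlap. The count then went down to 24 at 300 bp, 15 at 340 bp and 4 at both 460 and 480 bp (1.09 to 10.2 each). The interval at 240 bp does not overlap that at 480 bp, but 240 bp was picked as the fullest step. The intervals make no allowance for that choice, so their separation is a description and not a test.

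**Figure D1:**
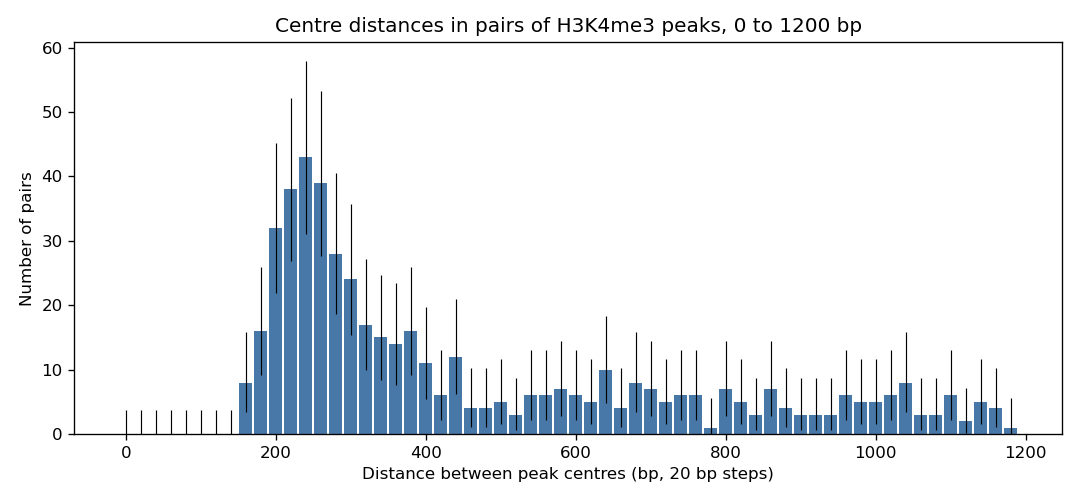
Number of pairs (vertical axis) at each 20 bp step of the distance between peak centres (horizontal axis, bp, up to 1200 bp); bars are counts and lines are exact 95% Poisson intervals. The highest bar is 43 pairs at 240 bp, steps below 160 bp are empty, and from 460 bp on no step exceeds 10 pairs.

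The first pair by position in each of the 3 fullest steps gives an example of this spacing. At 240 bp it lay on chromosome 1, with peaks at 19149122 to 19149271 and 19149362 to 19149511, separated by 90 bp. At 260 bp it lay on chromosome 1 at 35600002 to 35600151 and 35600262 to 35600411. At 220 bp it lay on chromosome 1 at 9019122 to 9019271 and 9019342 to 9019491. These examples differ in surroundings, as the nearest other peak was 118 kb, 642.5 kb and 11.5 kb away.

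Regular arrays of nucleosomes could place further maxima at multiples of their repeat. The repeat was not measured, so multiples of the commonest distance, 240 bp, were read instead, and no further maximum was seen there. The 3 steps from 220 to 260 bp held 120 pairs (99.5 to 143.5), which is 18.7% of them. The 3 steps centred on 2 times that distance, 460 to 500 bp, held 13 pairs (6.92 to 22.2), fewer than the 45 (32.8 to 60.2) midway at 340 to 380 bp. At 3 times the distance, 700 to 740 bp, there were 18 pairs (10.7 to 28.4), the same number as at 580 to 620 bp, and at 4 times the distance, 940 to 980 bp, there were 14 (7.65 to 23.5). These windows were chosen after the fullest step had been seen. The centres of called peaks are not mapped nucleosomes, and the width of the intervals sets the lower end of the distances, so these values do not establish a nucleosomal spacing. With 13 to 18 pairs a window, a shallow repeat was not detectable. The window from 340 to 380 bp lies on the falling side of the main maximum. A repeat other than 240 bp would place maxima outside the windows at multiples, so the question of regular arrays is not decided by them.

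Beyond the maximum the distances thinned out steeply at first and then more gradually. There were 180 pairs per 100 bp (154.7 to 208.3) from 200 to just under 300 bp, 86 (68.8 to 106.2) in the next 100 bp and 37 (26.1 to 51) in the 100 bp after that. From 500 to 1000 bp the density was 26.2 pairs per 100 bp (21.9 to 31.1), and from 1000 to 2000 bp it was 9.4 (7.6 to 11.5). From 2000 to 5000 bp it was 1.6 pairs per 100 bp (1.18 to 2.12), and from there to the longest distance 0.798 (0.572 to 1.08). At 2000 bp 86.3% of pairs had been reached, and at 5000 bp 93.8%.

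The linking limit cut off this tail. The 3 longest distances just inside it were 10140 bp on chromosome 6 (47292102 to 47302391), 10070 bp on chromosome 7 (54743822 to 54754111) and 9860 bp on chromosome 2 (86464362 to 86474371). The gaps in these pairs were 9990, 9850 and 9710 bp. Just outside it, neighbours on chromosome 11 (8233762 to 8244111) had a gap of 10050 bp, on chromosome 3 (103148122 to 103158551) 10130 bp and on chromosome 4 (118130902 to 118141371) 10170 bp. In the first of these the neighbour belonged to a group of 16 peaks, in the second a pair stood beside a single peak, and in the third 2 single peaks stood apart. In gap, the nearest cases on the 2 sides of the limit were thus 9990 and 10050 bp.

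Peak width, which the rule used only through the ends of the intervals, varied little among members. The settings of the peak caller are not given, so the listed width is not read as the extent of the mark. Whether 150 bp was set by the caller was not tested. Of the 1282 paired peaks, 16 were wider than the commonest width of 150 bp (1.25%, Wilson interval 0.77% to 2.02%), at 190 to 390 bp. Among isolated peaks on the same chromosomes 53 of 2973 were wider (1.78%, 1.37% to 2.32%), in groups of 3 to 9 peaks 18 of 1095 (1.64%, 1.04% to 2.58%) and in groups of 10 or more 36 of 3339 (1.08%, 0.78% to 1.49%). These intervals overlap that of the pairs, and peaks of a group are not independent.

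The 16 wider peaks lay in 16 different pairs, and no pair had 2 of them. The wider peak came first in 9 pairs and second in 7. Distances in these 16 pairs ran from 200 to 10070 bp with a median of 670 bp, against 440 bp in the other 625. The difference was not tested. The pair with the largest summed width lay on chromosome 10, with a peak of 390 bp at 13506002 to 13506391 and one of 150 bp at 13506942 to 13507091, 820 bp apart. Another 6 pairs tied with a peak of 290 bp, of which the first by position were on chromosomes 3 and 4. On chromosome 3 the wider peak at 17635882 to 17636171 lay 390 bp from its partner at 17636342 to 17636491. On chromosome 4 the wider peak came second, at 16105122 to 16105411, 690 bp from its partner at 16104502 to 16104651.

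Spacing was set beside that of larger groups and of pairs on chromosomes the rule left out. The 92 pairs on chromosomes 16, 19, 20 and X had the same median, 460 bp (320 to 940 bp), with 42.4% (32.8% to 52.6%) at 200 to 400 bp and 63% (52.8% to 72.2%) under 1000 bp. Their fullest step was 260 bp, with 8 pairs. By chromosome the medians were 460 bp on chromosome 16 (29 pairs), 520 bp on chromosome 19 (31), 540 bp on chromosome 20 (15) and 340 bp on chromosome X (17). Pairs on these chromosomes, taken from the same list by the same linking rule, thus had an equal median, within a wide interval. The rule and the interval width limit both sets alike, so this is not a replication.

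In groups of 3 to 9 peaks on the same 17 chromosomes the fullest step was again 240 bp, with 41 of 834 neighbour distances, and 31.2% (28.1% to 34.4%) were at 200 to 400 bp. Their median was longer, at 680 bp (600 to 780 bp). In groups of 10 or more peaks the fullest step was 320 bp, with 115 of 3220 distances, the median was 580 bp (560 to 600 bp) and 28.6% (27.1% to 30.2%) were at 200 to 400 bp. Under 1000 bp lay 61.4% (58% to 64.6%) of the distances in groups of 3 to 9 and 72% (70.4% to 73.5%) in groups of 10 or more, the latter close to the 71.5% of pairs. The step at 240 bp took 6.71% in pairs, 4.92% in groups of 3 to 9 and 2.39% in groups of 10 or more. At 480 bp, a step with 4 pairs, the order was the opposite, with 0.624%, 1.56% and 2.2%. That order did not hold at all nearby steps, as 440 bp took 1.87%, 1.44% and 2.64%. Distances within a larger group share that group and are not independent, so these differences were not tested.

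**Figure D2:**
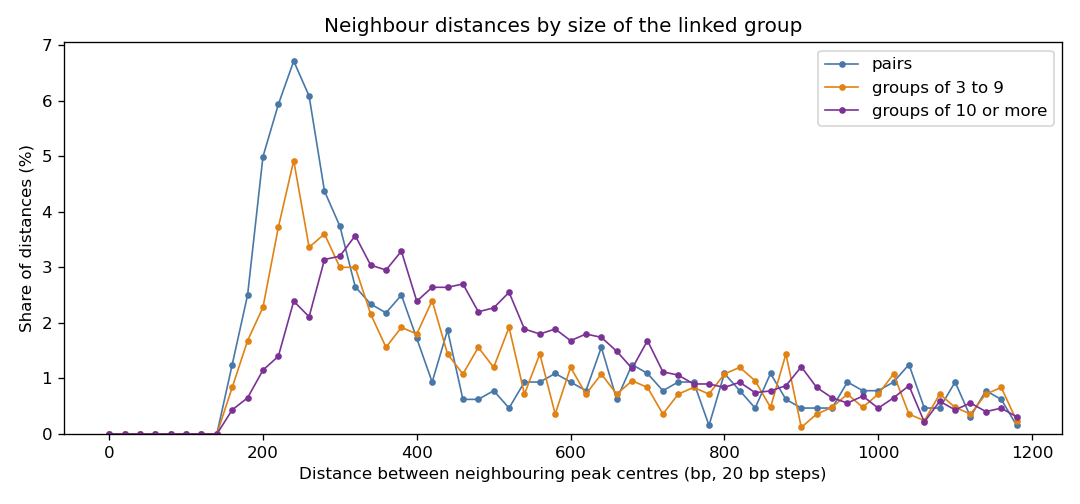
Share of neighbour distances (vertical axis, percent) at each 20 bp step (horizontal axis, bp) in 641 pairs, in 834 distances from groups of 3 to 9 peaks and in 3220 distances from groups of 10 or more, on the same 17 chromosomes. Pairs and groups of 3 to 9 are highest at 240 bp (6.71% and 4.92%), and groups of 10 or more at 320 bp (3.57%).

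Groups of exactly 3 peaks are the nearest in size to the pairs. Of the 2 distances in each of 131 such groups, the shorter had a median of 300 bp (280 to 360 bp), with 54.2% at 200 to 400 bp and a fullest step of 240 bp. The longer had a median of 1140 bp (880 to 1440 bp), with 12.2% at 200 to 400 bp. The shorter of 2 values is lower by construction, so neither set is directly comparable with the pairs, whose median lay between them.

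Pairs occurred on all 17 chromosomes, 9 to 76 on each, at 0.259 pairs per Mb (exact Poisson interval 0.239 to 0.28) over 2477 Mb, with each chromosome measured to its last peak. The highest densities were on chromosome 7, with 68 pairs at 0.4 per Mb (0.311 to 0.508), and on chromosome 14, with 46 at 0.346 (0.253 to 0.461). The lowest were on chromosome 18, with 9 at 0.122 (0.0559 to 0.232), and on chromosome 8, with 28 at 0.189 (0.126 to 0.274). The density over all 17 includes each chromosome's own pairs, and the 17 intervals make no allowance for their number. For 14 of the 17 chromosomes the interval held that density. The exceptions were chromosomes 7 and 1 above it (chromosome 1 had 76 pairs at 0.333 per Mb, 0.262 to 0.417) and chromosome 18 below it; chromosome 1 is named because its value was seen. For every 100 isolated peaks there were 21.6 pairs on the 17 chromosomes together, from 15.8 on chromosome 9 to 28.2 on chromosome 7. Chromosome 7 was highest of the 17 by both measures, which share the same 68 pairs, and chromosomes 17 (26.1) and 14 (25.1) were close in the second. As a share of linked groups, pairs made up 19.6% on chromosome 7 and 17.6% on chromosomes 1 and 14. The share was 12.4% on chromosome 8 and 12.7% on chromosome 18, against 16% over all 17. Chromosome 17, at 18.6%, lay above chromosomes 1 and 14, and chromosome 9, at 11.8%, was lowest of the 17. How far the density of pairs follows that of all groups was not tested.

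Spacing per chromosome is given as medians, which vary less than single distances by construction, so variation between and within chromosomes was not compared. Medians per chromosome ran from 370 bp on chromosomes 1 and 14 to 760 bp on chromosome 3 (440 to 960 bp). On every one of the 17 the exact interval of the median held the 460 bp of all pairs. That value includes the same pairs, and some intervals were wide, as on chromosome 18 (220 to 1360 bp). The share at 200 to 400 bp ran from 28.9% of 45 pairs on chromosome 3 to 54.3% of 46 pairs on chromosome 14. Within chromosome 1 the quartiles were 240 and 1025 bp, and within chromosome 3 they were 360 and 1640 bp.

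**Figure D3:**
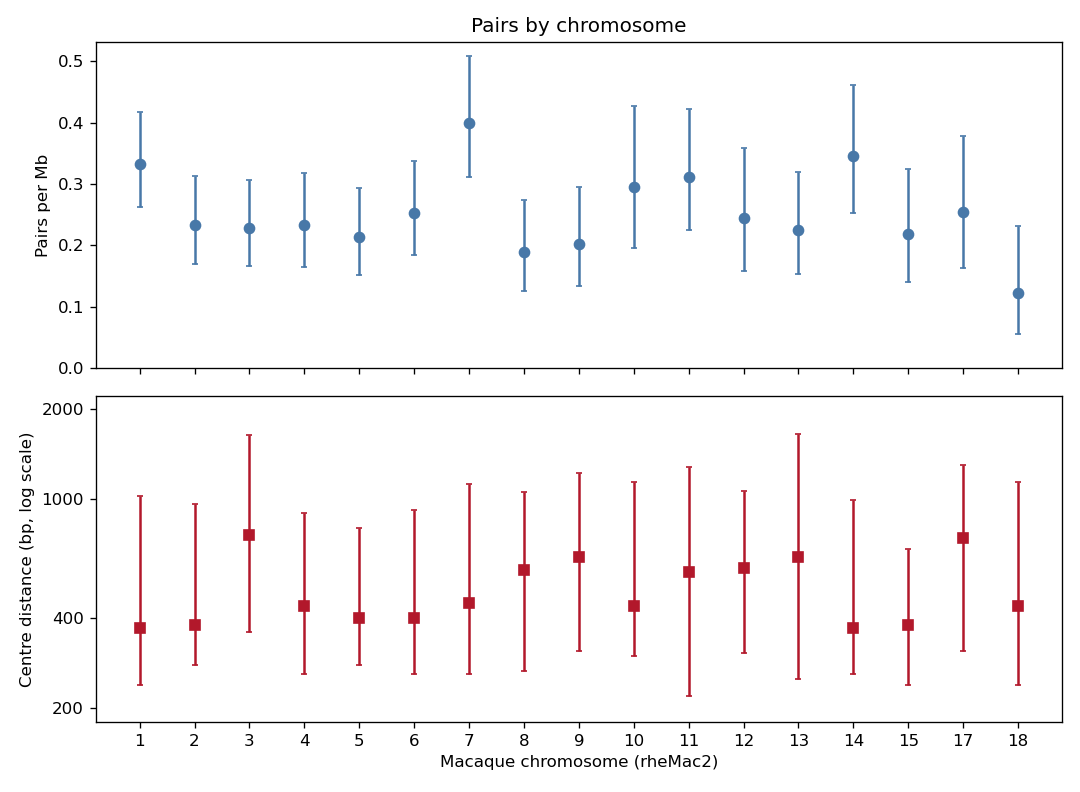
Pairs per Mb with exact 95% Poisson intervals (upper axis) and median centre distance with its quartiles (lower axis, bp, log scale) for each of the 17 chromosomes. Densities run from 0.122 on chromosome 18 to 0.4 on chromosome 7, and the quartile ranges of the distance overlap on all chromosomes.

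At 1 Mb resolution most windows held no pair, and whether pairs cluster was not tested. Of 2486 windows, 525 (21.1%) held a pair, 437 of them 1 pair, 70 of them 2 and 18 of them 3 or more. The most was 5, in 2 windows of chromosome 1. From 128 to 129 Mb their distances were 220, 1420, 960, 1020 and 1000 bp. From 141 to 142 Mb they were 220, 240, 420, 8440 and 420 bp. The first by position of 6 windows with 4 pairs, 22 to 23 Mb of chromosome 7, had 220, 180, 320 and 260 bp. Both windows of chromosome 1 mixed short distances with longer ones. In the order given, the named windows held 8, 11 and 10 linked groups of any size.

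Along each chromosome, divided into 5 parts of equal length from its lower coordinates, the parts held 123, 146, 144, 109 and 119 pairs. As shares these were 19.2%, 22.8%, 22.5%, 17% and 18.6%, and all 3994 linked groups gave 19.9%, 22%, 20.5%, 19.6% and 18.1%. Each share of all groups lay within the Wilson interval of the pairs' share, the widest gap being in the fourth part (14.3% to 20.1% for pairs). All groups include the pairs, so the shares are not independent and a difference was not tested.

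The distance from a pair to the nearest other peak, above 10 kb by the rule, had a median of 118 kb (exact interval 97.6 to 137.9 kb) and quartiles of 39.1 and 331 kb. For isolated peaks the median was 176.7 kb (168 to 189.5 kb), for groups of 3 to 9 peaks 53.9 kb (42.6 to 74.6 kb) and for groups of 10 or more 24.8 kb (21.1 to 36.5 kb). By this measure pairs lay between isolated peaks and larger groups. Another peak was within 50 kb of 29.3% of pairs (25.9% to 33%) and of 20.3% of isolated peaks (18.9% to 21.8%). All 4 kinds come from 1 linking, so the order is a description.

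The nearest other group was an isolated peak for 470 pairs (73.3%, 69.8% to 76.6%), a pair for 108 (16.8%, 14.2% to 19.9%), a group of 3 to 9 for 53 (8.27%, 6.38% to 10.7%) and a group of 10 or more for 10 (1.56%, 0.85% to 2.85%). All groups on these chromosomes were 74.4% isolated peaks, 16% pairs, 6.53% groups of 3 to 9 and 2.98% groups of 10 or more. The share of pairs next to a pair was close to the share of pairs among groups, and that next to a group of 10 or more was below 2.98%. For isolated peaks the nearest group held 10 or more in 1.35% (0.99% to 1.83%), so the low share was shared with them. For groups of 3 to 9 the value was 11.5% (8.17% to 15.9%), and for groups of 10 or more it was 37% (28.8% to 45.9%). The make-up of all groups is thus not an expected value for the nearest group. All kinds come from 1 linking, and these shares were not tested.

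Spacing inside a pair showed little relation to its isolation. The 453 pairs with no other peak within 50 kb had a median distance of 440 bp (380 to 560 bp), and the 188 others 520 bp (400 to 760 bp). The shares at 200 to 400 bp were 43.9% (39.4% to 48.5%) and 41.5% (34.7% to 48.6%). Across the 641 pairs, which share 1 library, the Spearman rho between centre distance and distance to the nearest other peak was -0.03. Among 113 cases where 2 consecutive groups were both pairs, both distances were at 200 to 400 bp in 24, 1 of them in 51 and neither in 38. The distances were equal in 3 cases and differed by at most 20 bp in 10. Over all pairs 43.2% lay at 200 to 400 bp, and whether consecutive pairs resemble each other was not tested.

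The 3 most isolated pairs all lay on chromosome 5. The pair at 87633402 to 87633851 had 300 bp between centres and its nearest other peak 3577.3 kb away. The pair at 124538242 to 124538971 had 580 bp and its nearest other peak 3226.3 kb away. The pair at 169421082 to 169421511 had 280 bp and its nearest other peak 2546 kb away. In each of them both peaks were 150 bp wide.

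**Figure D4:**
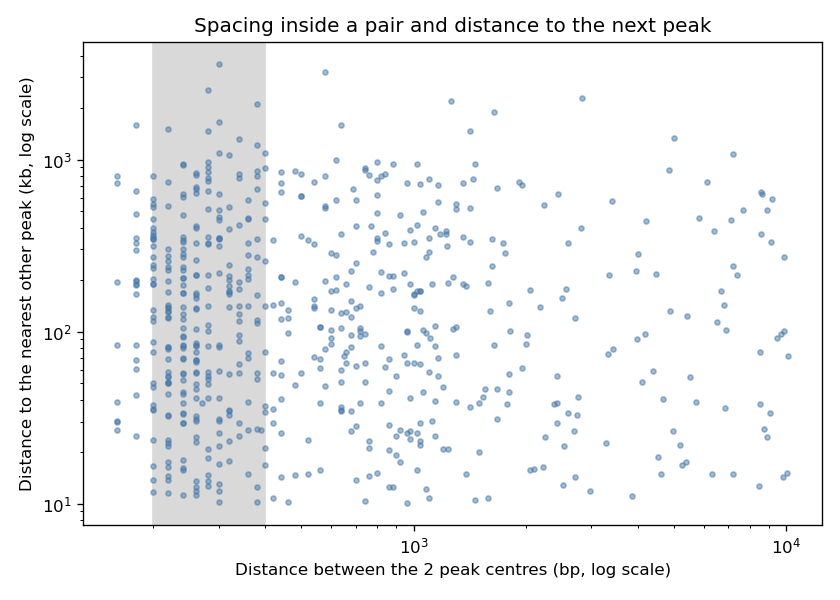
Each point is 1 of 641 pairs, with the distance between its peak centres (horizontal axis, bp, log scale) and the distance to the nearest other peak (vertical axis, kb, log scale); the grey band marks 200 to 400 bp. The band, which holds 277 pairs, is filled over the whole height of the plot (Spearman rho -0.03).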

How the data were processed

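One H3K4me3 library was analysed. The deposited list gives start and end positions only, which the authors' file name places on rheMac2 with 0.01 as false discovery rate. Bowtie 0.12.7, a read aligner, is named in the submitters' processing notes. Not given in the sources used here are the peak caller, its settings and its use of total H3. Baboon reads on a macaque assembly can be lost or misplaced where the species differ. Starts were read as counted from 0 and are printed counted from 1; the list does not say how it counts, and if it counts from 1, printed starts are 1 too high, widths 1 bp too small and gaps 1 bp too large, with distances between starts unchanged. Depth is unknown.

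Peaks were sorted, linked at gaps of up to 10000 bp and counted with Python 3.11.15, pandas 2.3.3 and scipy 1.17.1, and the linking was checked on constructed positions of known grouping. Medians have exact binomial (order statistic) intervals, shares Wilson intervals and counts exact Poisson intervals, all at 95%. No hypothesis test was run, since there is 1 library and regions are not replicates. Named regions follow a rule, with ties broken by position: the 3 widest, most isolated and most distant pairs, the 3 nearest misses of the linking limit, the first pair of the 3 fullest steps, the fullest 1 Mb windows and the densest and sparsest 2 chromosomes. The members and lists were chosen with earlier results of these data known. Alternatives covered the linking gap, isolation, chromosomes, merging, width and the distance measure.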

Additional observations from a re-analysis of the deposited data

How the results depend on the processing

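Linking at 2, 5 and 20 kb moved the share of pairs under 1000 bp from 71.5% to 79.7%, 75.2% and 66.9%, and linking at 50 kb gave 54.2%, a median of 800 bp and 32.5% at 200 to 400 bp; a wider limit admits longer distances by construction. Merging peaks with gaps of up to 500 bp before linking left 356 pairs, a median of 1380 bp, 0% at 200 to 400 bp, 26.4% under 1000 bp and 16.3% of intervals wider than 150 bp; merging removes the close pairs by construction. Measured as the gap between intervals, the median was 310 bp, with 12.6% at 200 to 400 bp and 77.4% under 1000 bp. The other alternatives stayed within the intervals of the reported values, or within 1.5 times for the number of pairs: leaving out each of the 17 chromosomes gave medians of 440 to 480 bp and 42.4% to 44.3% at 200 to 400 bp. Each run without 1 chromosome kept 565 to 632 pairs, so small changes were built in. No paired analysis was possible because there is 1 library per antibody. With read depth not known, a missing peak beside or between members does not show absence of the mark.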
